A study of Mus musculus with 4 samples.

Results

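The outermost parts of a meiotic break hotspot on mouse chromosome 1 were compared through the deletions that reached into them. Deletions reaching left out of the stretch that amplicons 1 and 4 shared were taken from amplicon 1, and deletions reaching right out of it from amplicon 4. A distinct deletion was a pair of first and last deleted bases within a library. Of the 357 distinct deletions of these 2 libraries, 59 were left-reaching and 84 were right-reaching. The other deletions lay wholly inside the shared stretch, 117 in amplicon 1 and 97 in amplicon 4, and were kept apart. All 4 amplicons of the series together held 801 distinct deletions counted per library, or 659 counted once over the libraries.

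The DNA came from testicular cell suspensions of 3 C57BL/6 mice, 5 to 7 weeks old, that carried a conditional knockout of Mre11 and are labelled Mre11-/-, with spermatocytes given as the cell type. The Cre line behind the knockout is not given in the sources used here, and no control DNA was analysed here, so every value describes the mutant. For each amplicon 576 PCRs of 22 cycles were run on 50 ng of DNA each, an input of 9600000 haploid genomes, and the products of the 3 mice were pooled into 1 library. There was therefore no replicate, no spread between mice and no test between conditions. From amplicons 1 and 4 alone, a difference between the left and the right flank cannot be told apart from a difference between the 2 libraries and their primers.

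In meiosis the SPO11 protein cuts both DNA strands at hotspots and stays bound to the cut ends. MRE11 acts as a nuclease together with RAD50 and NBS1 and nicks the strands beside the bound SPO11, which frees the ends for resection and recombination. When ends are instead joined to each other, the join can lose the DNA between them. The join may be blunt, may pair short identical stretches called microhomology, of which 1 copy is then kept, or may hold inserted bases.

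In the mm10 assembly amplicon 1 covered chr1:33764688-33765262 and amplicon 4 covered chr1:33764983-33765556, both within Zfp451, a gene annotated from 33761541 to 33815602. Whether these bases are exonic or intronic was not analysed here. The shared stretch was chr1:33764983-33765262, of 280 bp. The left flank, read here by amplicon 1, was the 295 bp before it, and the right flank, read by amplicon 4, was the 294 bp after it. Distances below run from the midpoint of the shared stretch, a geometric point that uses no deletion, because the published centre of the hotspot was not used here. The midpoint lies equally far from both boundaries, so the left and right deletions had to pass the same distance to be counted.

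The joins of the most supported deletions are shown to let the 2 flanks be read side by side. Each sequence was taken from the deposited reads and gives the kept bases on either side of the join, top strand, 5′ to 3′. Capitals mark the microhomology, the inserted bases or, at a blunt join, the last kept base before and the first kept base after the deletion. The first lines are left-reaching deletions with the most molecules, then the one that reached furthest with microhomology.
chr1:33764954-33765053, blunt: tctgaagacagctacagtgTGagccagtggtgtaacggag
chr1:33764803-33765053, blunt: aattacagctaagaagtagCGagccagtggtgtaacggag
chr1:33764800-33765052, microhomology: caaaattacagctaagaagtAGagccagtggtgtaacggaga
chr1:33764954-33765084, microhomology: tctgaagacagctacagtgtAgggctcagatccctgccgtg
chr1:33764729-33765000, microhomology: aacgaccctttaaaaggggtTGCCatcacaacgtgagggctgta

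The right-reaching deletions with the most molecules had these joins, followed by the pair of deletions that reached furthest, which end at the same base and carry insertions. The printed joins of this pair differ in 1 base, and each rests on 1 molecule and 1 read pair. Whether the pair stems from the same product was not tested.
chr1:33765055-33765356, microhomology: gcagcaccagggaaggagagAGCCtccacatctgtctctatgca
chr1:33765055-33765277, microhomology: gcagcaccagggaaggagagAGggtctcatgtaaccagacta
chr1:33765070-33765309, blunt: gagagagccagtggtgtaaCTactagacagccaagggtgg
chr1:33765085-33765277, microhomology: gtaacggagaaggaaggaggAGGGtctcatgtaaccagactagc
chr1:33765039-33765276, microhomology: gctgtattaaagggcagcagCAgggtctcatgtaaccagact
chr1:33765429-33765526, inserted: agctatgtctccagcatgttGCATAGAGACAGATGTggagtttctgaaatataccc
chr1:33765431-33765526, inserted: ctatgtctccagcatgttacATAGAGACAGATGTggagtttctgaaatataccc

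More deletions reached right than left. The 84 right-reaching deletions (95% exact Poisson interval 67.0 to 104) were 1.42 times the 59 left-reaching ones (44.9 to 76.1), with an exact conditional interval of the ratio of 1.01 to 2.02. Inside the shared stretch the order was the other way, with amplicon 4 holding 0.829 times as many distinct deletions as amplicon 1 (0.627 to 1.09). Set against the inside deletions of the same library, the flank deletions came to 0.504 in amplicon 1 and 0.866 in amplicon 4, a ratio of 1.72 (1.09 to 2.70). The shared stretch lies at the end of amplicon 1 and at the start of amplicon 4, so the inside counts may not be an equal yardstick. Each of these intervals is at 95%, covers counting error only and treats deletions as independent, although some share an edge and PCR copies are not independent molecules. The lower bound of the count ratio fell below 1 with at least 2 read pairs (38 and 51 deletions, ratio 1.34, 0.865 to 2.10), with at least 20 bp past the boundary (58 and 72, 1.24, 0.866 to 1.79) and with edges within 3 bp merged (51 and 72, 1.41, 0.973 to 2.06).

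Molecules, the authors' collapse of read pairs, differed more between the flanks than distinct deletions did. Left-reaching deletions had 104 molecules and 177 read pairs, and right-reaching ones 198 molecules and 440 read pairs. The right-to-left ratio was thus 1.90 for molecules and 2.49 for read pairs. For the inside deletions the ratio of amplicon 4 to amplicon 1 was 1.07 for molecules and 1.20 for read pairs. Per 1000000 haploid genomes of input, the left-reaching molecules came to 10.8 and the right-reaching ones to 20.6. Neither value is a deletion frequency, since reads without a deletion were not analysed here and the sequenced share of the input is unknown. Amplicon 1 gave 486 read pairs with a deletion in all and amplicon 4 gave 812.

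**Figure D1:**
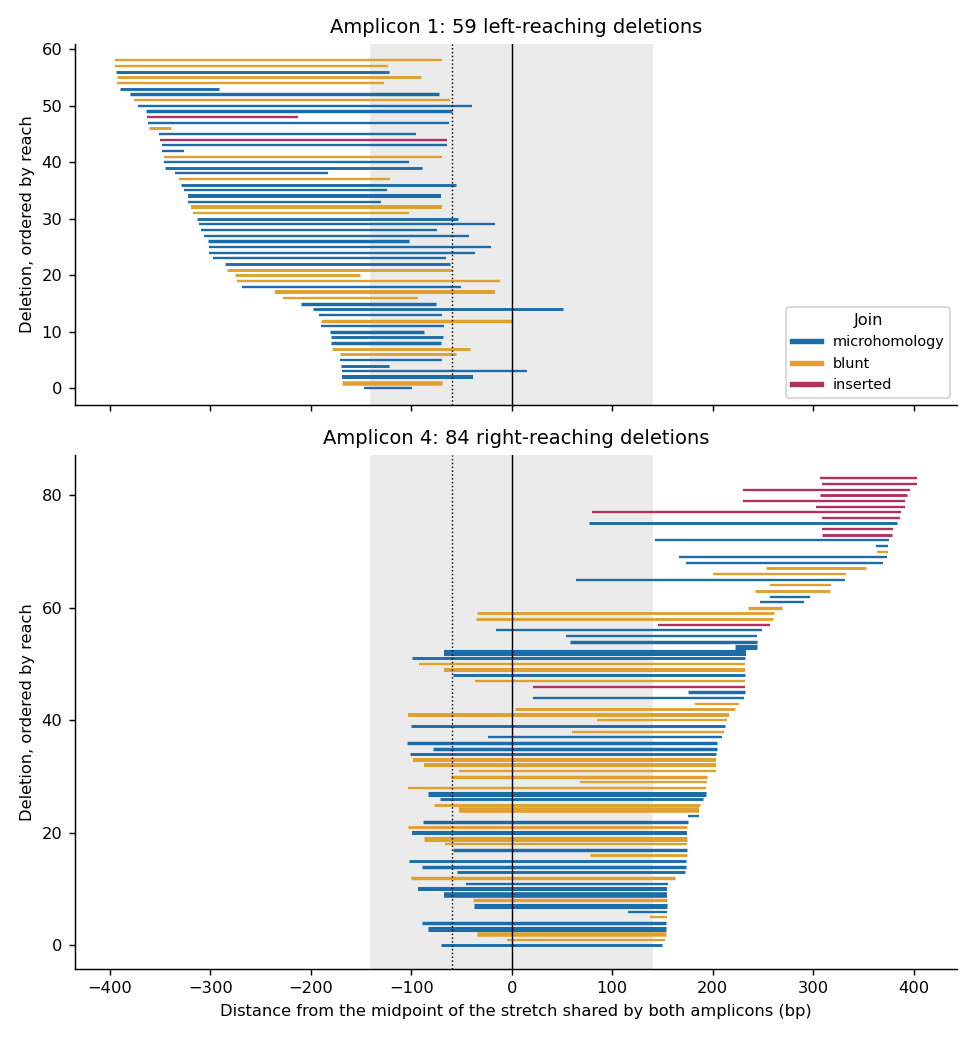
Every flank deletion drawn as a bar from its first to its last deleted base, ordered by reach, against distance from the midpoint of the shared stretch in bp (solid line). Colour gives the join, bar thickness grows with molecules up to 8, grey shading is the shared stretch and the dotted line is the median midpoint of the inside deletions, 59 bp to the left. Left-reaching bars mostly stop short of the midpoint, 56 of 59 doing so, while 44 of 84 right-reaching bars cross it. The dotted line is crossed by 16 of 59 and 29 of 84, and 10 of the 12 insertion joins on the right lie wholly beyond the shading.

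Reach, the distance from the midpoint to the outermost deleted base, was longer on the left. Its median was 311.5 bp for left-reaching deletions (order-statistic interval 283.5 to 331.5; quartiles 203.5 and 348.5) and 219.5 bp for right-reaching ones (203.5 to 232.5; quartiles 174.5 and 301.5). The classes differed most in 2 bands. Between 300 and 400 bp lay 35 of 59 left-reaching deletions (59.3%) against 19 of 84 on the right (22.6%). Between 150 and 250 bp lay 17 of 59 on the left (28.8%) against 56 of 84 on the right (66.7%). The furthest deletions reached nearly equally far, to 394.5 bp on the left and 403.5 bp on the right, and stopped 40 and 30 bp short of the ends of their amplicons.

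The inner ends, the other ends of the same deletions, lay on the left side of the midpoint for most left-reaching deletions and on both sides for the right-reaching ones. Their median was 69.5 bp short of the midpoint on the left, and 19.5 bp past it on the right. Deletions past the midpoint numbered 3 of 59 left-reaching (5.08%) and 44 of 84 right-reaching (52.4%), a difference of 47.3 percentage points (Newcombe interval 33.5 to 58.2) that depends on the centre, as given next.

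The order of the reach and of the inner ends depends on the point they are measured from. The midpoints of the 391 distinct deletions lying inside the shared stretch in any of the 4 libraries had their median 59 bp to the left of the geometric midpoint. From there the median reach was 252.5 bp on the left (224.5 to 272.5) and 278.5 bp on the right (262.5 to 291.5), so the right-reaching deletions were then the further ones. The median inner end, negative where short of this point, was at -10.5 bp on the left and -39.5 bp on the right, so this order turned as well. Past it went 16 of 59 left-reaching (27.1%) and 29 of 84 right-reaching deletions (34.5%), 7.41 percentage points apart with an interval that includes 0 (-8.15 to 21.8). This point lies 80.5 bp from the left boundary and 198.5 bp from the right one, so left-reaching deletions could be counted at a shorter distance. With both boundaries set at 198.5 bp from it, 41 left-reaching and 84 right-reaching deletions were left, a ratio of 2.05 (1.39 to 3.05). An outer limit of 335.5 bp was then set on both sides as well. It is the reach of the furthest left-reaching deletion, so it could remove right-reaching deletions only. With it the counts were 41 and 61, a ratio of 1.49 with an interval that includes equality (0.985 to 2.27). The median reach was then 276.5 bp on the left and 253.5 bp on the right.

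**Figure D2:**
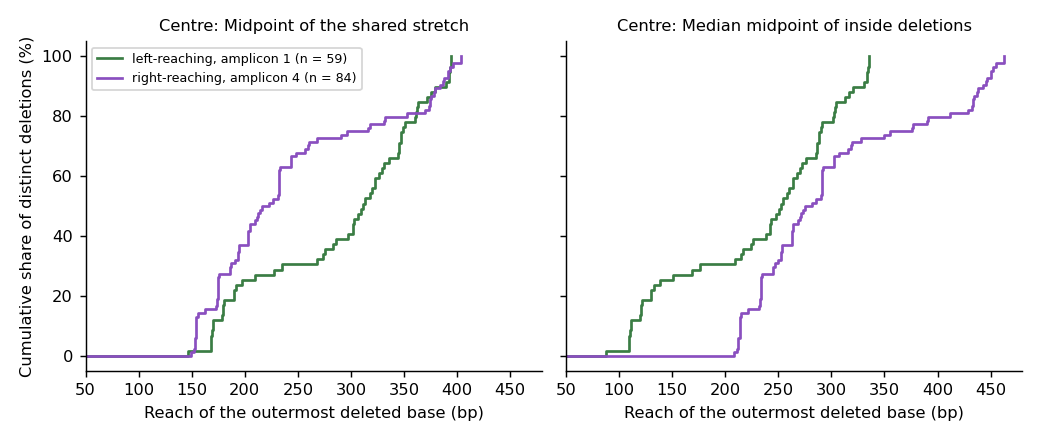
Cumulative share of distinct flank deletions (%) against reach of the outermost deleted base (bp), from the midpoint of the shared stretch (first panel) and from the median midpoint of the inside deletions (second panel), for 59 left-reaching and 84 right-reaching deletions. In the first panel the right-reaching curve rises earlier, with a median of 219.5 against 311.5 bp, and in the second the left-reaching curve rises earlier, with 252.5 against 278.5 bp.

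Sizes were alike in their medians. Left-reaching deletions removed 22 to 333 bp with a median of 225 bp (191 to 256; quartiles 133 and 269), and right-reaching ones 12 to 333 bp with a median of 222 bp (191 to 249; quartiles 100.25 and 271.25). Over 200 bp were 36 of 59 on the left (61.0%) and 48 of 84 on the right (57.1%), a difference of 3.87 percentage points with an interval of -12.4 to 19.5. Up to 100 bp were 7 of 59 (11.9%) and 21 of 84 (25%), with overlapping exact binomial intervals of 4.91 to 22.9 and 16.2 to 35.6. The inside deletions, confined to 280 bp, were shorter, and their median size was 54 bp in amplicon 1 against 53 bp in amplicon 4, with 2 of over 200 bp in each library. The size order is not stable to read support: with at least 2 molecules the medians were 201 bp on the left and 263 bp on the right.

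**Figure D3:**
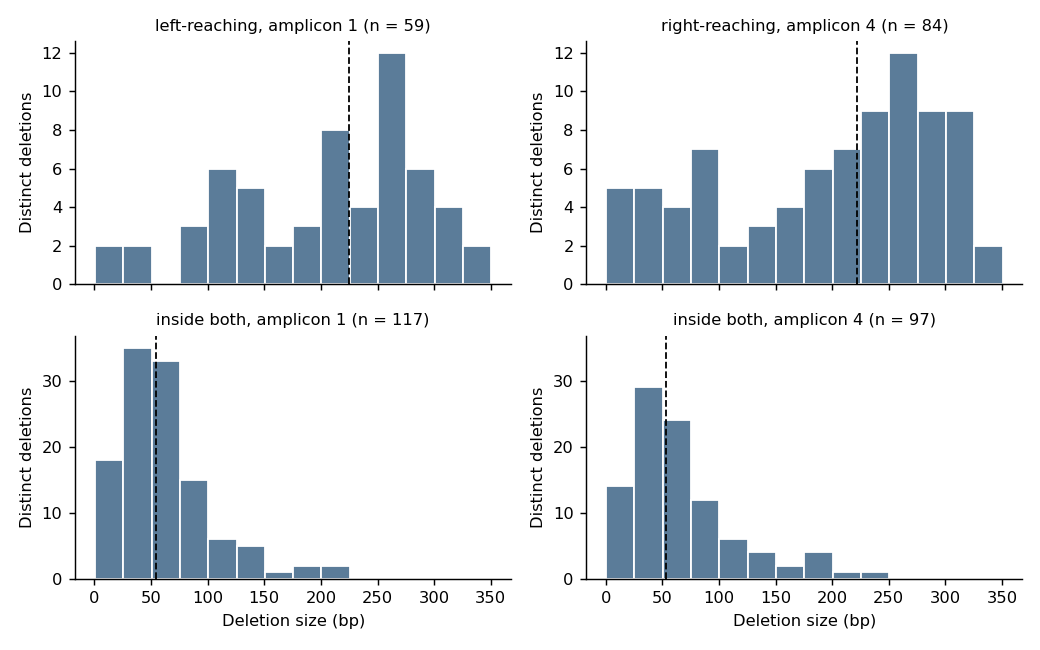
Number of distinct deletions by size (bp, bins of 25 bp), with the median dashed, for the flank deletions and the inside deletions of amplicons 1 and 4. The flank medians, 225 and 222 bp, nearly coincide, the inside medians are 54 and 53 bp, and the right-reaching panel has 21 deletions of up to 100 bp against 7 in the left-reaching one.

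The right-reaching deletions were sorted by their inner end, which also bounds their size. Most deletions inside the shared stretch lie over a crowded 100 bp, chr1:33765001-33765100, which held 153 of 196 midpoints of the distinct inside deletions of amplicons 1 and 4. It was picked from these same midpoints as the fullest. A right-reaching deletion that begins there has to run past the end of the shared stretch, so it cannot be short. Among right-reaching deletions 42 of 84 (50.0%) had their inner end there, and they held 138 of the 198 molecules. They measured 189 to 333 bp (median 265.5), had a median of 3 molecules, and 7 of them rested on 1 molecule. Another 26 (31.0%) had both ends in the right flank, measured 12 to 234 bp (median 77.5) and held 39 molecules, with 19 resting on 1 molecule. The last 16 (19.0%) had their inner end elsewhere in the shared stretch and held 21 molecules.

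Left-reaching deletions seldom lay within their flank alone. Of the 59, 40 (67.8%) had their inner end in the crowded 100 bp and held 74 of the 104 molecules, with a median size of 234.5 bp. Both ends lay in the left flank in 6 (10.2%; interval 3.82 to 20.8), of 22 to 154 bp and 9 molecules in all, and the inner end lay elsewhere in the shared stretch in 13 (22.0%). The share with both ends in the flank was thus lower on the left than the 31.0% of the right (interval 21.3 to 42.0). Counting the deletions with an inner end in the crowded 100 bp alone, the flanks held 40 and 42 distinct deletions, while their molecules numbered 74 and 138. These counts are not on an equal footing, because the crowded 100 bp lies nearer to the left boundary than to the right one. The smallest such deletions were of 48 bp on the left and 189 bp on the right.

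Microhomology of 1 bp or more was more frequent among the left-reaching deletions than among the right-reaching ones. It was found at 38 of 59 left joins (64.4%; 50.9 to 76.4) and 39 of 84 right joins (46.4%; 35.5 to 57.6), a difference of 18.0 percentage points (1.40 to 33.0). Matches of only 1 bp made up 15 of the 38 and 8 of the 39. Microhomology of at least 3 bp was found at 17 left joins (28.8%) and 19 right joins (22.6%). The share of matches to be found at random joins was not worked out. Blunt joins numbered 19 (32.2%) and 33 (39.3%), a difference whose interval includes 0. Inserted bases were found at 2 left joins (3.39%; 0.413 to 11.7) and 12 right joins (14.3%; 7.61 to 23.6), a difference, left minus right, of -10.9 percentage points (-20.3 to -0.819). Inside the shared stretch the microhomology shares were 58.1% in amplicon 1 (68 of 117) and 61.9% in amplicon 4 (60 of 97), the other way round, with an interval of the difference that includes 0 (-16.5 to 9.37).

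The gap in microhomology narrowed when deletions were weighted by support. By molecules the shares were 62.5% on the left and 54.5% on the right, and by read pairs they were 57.6% and 56.4%, only 1.26 percentage points apart. Among deletions with at least 2 read pairs the difference was 4.95 percentage points, and among those with at least 2 molecules 8.62. On the right, deletions of 1 molecule had microhomology in 14 of 38 and inserted bases in 10 of 38, against 25 and 2 of 46 among deletions with more molecules. On the left the microhomology counts were 21 of 32 and 17 of 27. Single-molecule joins on the right therefore carried most of the insertions and fewer of the microhomologies.

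**Figure D4:**
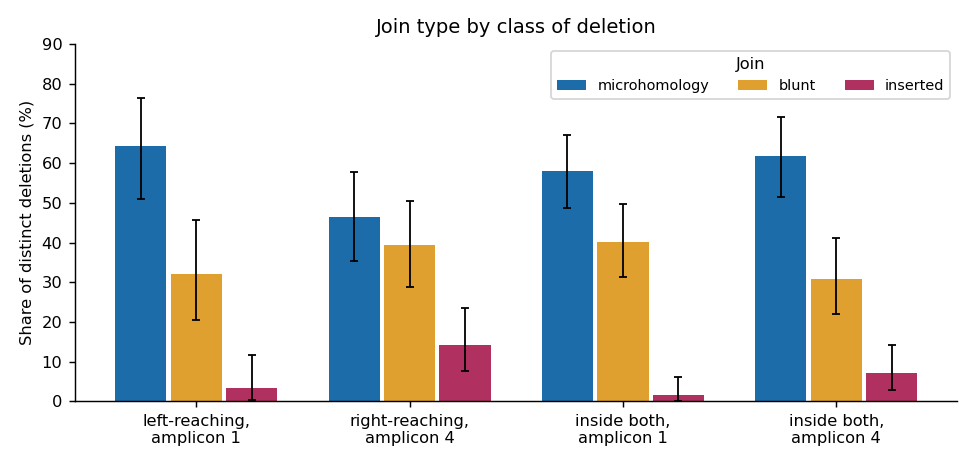
Share of distinct deletions (%) joined by microhomology, blunt or with inserted bases in each class, with 95% exact binomial intervals that cover counting error only. Left-reaching deletions stand at 64.4, 32.2 and 3.39%, right-reaching ones at 46.4, 39.3 and 14.3%, and the inside deletions of both libraries have their microhomology bars between, at 58.1 and 61.9%.

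Long microhomologies occurred on both sides. The 38 left joins had 15 microhomologies of 1 bp, 6 of 2 bp, 6 of 3 bp, 4 of 4 bp and 7 of 5 bp or more, and the 39 right joins had 8, 12, 6, 6 and 7. The longest on the left were of 8 bp, at chr1:33764733-33764831 (taagagca) and chr1:33764775-33764796 (agtagcaa). The longest on the right was the 9 bp tctgtctct at chr1:33765345-33765366, a 22-bp deletion of 6 molecules, shown here because the right flank holds this tract more than once and other joins used parts of it.
chr1:33765345-33765366, microhomology: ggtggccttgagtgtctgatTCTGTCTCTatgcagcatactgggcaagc
The deletions chr1:33765176-33765366 and chr1:33765180-33765366 ended at the same base with microhomologies of 7 bp (tctgtct) and 8 bp (tctgtctc). Such a repeated tract lets the copy that was lost be placed at several positions, and the leftmost placement was used throughout.

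The longer insertions of the right flank matched the region itself, read on the other strand. Of the 12 insertions, 8 were of at least 8 bp, and each of these 8 matched the opposite strand of the 869-bp region of all amplicons over its whole length at 1 place. Of all possible 8-letter sequences, 2.57% occur in the region on either strand. Such matches were not limited to this flank of amplicon 4. Among inside deletions, 5 of 5 inserts of at least 8 bp matched so in amplicon 2, 1 of 1 in amplicon 4 and 0 of 3 in amplicon 3. Among right-reaching deletions it was 2 of 2 in amplicon 2 and 2 of 2 in amplicon 3. For 5 of the 8 inserts in the right flank of amplicon 4 the matching bases lay within chr1:33765357-33765379. The deletions with these 5 inserts all began at 33765429 or 33765431, had 1 or 2 molecules each, and their inserts had bases in common. Whether they stem from the same product was not tested. Of the 8 matches, 7 lay before the deletion, 49 to 169 bp from its edge. Inserts of 14 and 13 bp, which matched within chr1:33765357-33765379, are left out of the lines below. The inserts of 21, 20, 16 and 12 bp show the pattern, printed wholly in capitals as inserted bases.
chr1:33765431-33765509, insert of 21 bp, opposite strand of 33765357 to 33765377: ATAGAGACAGATGTGGAGGCT
chr1:33765431-33765502, insert of 20 bp, opposite strand of 33765242 to 33765261: GAATCAAAGACTCCAGAAGA
chr1:33765429-33765526, insert of 16 bp, opposite strand of 33765364 to 33765379: GCATAGAGACAGATGT
chr1:33765353-33765519, insert of 12 bp, opposite strand of 33765261 to 33765272: AAACATTTAACG

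Support for these joins was thin. The 12 deletions with insertions held 14 molecules, and 10 of them rested on 1 molecule. Among them chr1:33765429-33765526 and chr1:33765431-33765526 are counted apart, although their joins differ in 1 base. The 2 left insertions were of 2 bp each and 1 molecule each. One right insertion was seen again: chr1:33765268-33765379 with the 10-bp insert AATTTCAAGT had 1 molecule in amplicon 4 and 1 in amplicon 3, an independent set of PCRs on DNA of the same mice. Whether any of these inserted bases arose in the PCR was not tested.

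Outer ends were reused on the right and hardly on the left. At the left flank 1 base served as the outer edge of at least 3 distinct deletions, 33764954, with 3 deletions and 10 molecules. At the right flank 6 bases did: 33765276 (3 deletions), 33765277 (6), 33765297 (6), 33765326 (4), 33765355 (7) and 33765366 (3). Deletions ending at such a base made up 3 of 59 on the left (5.08%) and 29 of 84 on the right (34.5%), 29.4 percentage points apart (16.6 to 40.6). With each deletion at its rightmost placement instead, 16 right-reaching deletions (19.0%) ended at 4 such bases, and 3 left-reaching ones (5.08%) at 1, 33764762, in place of 33764954. The flanks held unlike numbers of deletions, which was not adjusted for.

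The stretches that hold these edges are printed so that the flanking bases can be read, with capitals at the recurrent edge bases. In the stretch of inner edges these are 33765020 and 33765053, the last deleted bases of left-reaching deletions, and 33765019 and 33765055, the first deleted bases of right-reaching ones.
left outer edges, chr1:33764939-33764969: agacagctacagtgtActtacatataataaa
right outer edges, chr1:33765261-33765381: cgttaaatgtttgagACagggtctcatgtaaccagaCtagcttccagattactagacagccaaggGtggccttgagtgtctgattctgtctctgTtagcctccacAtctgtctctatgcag
inner edges of both flanks, chr1:33765005-33765068: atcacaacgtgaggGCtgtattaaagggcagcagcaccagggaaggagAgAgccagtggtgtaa

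The right outer edges were also used in the neighbouring libraries. Base 33765277 was the last deleted base of 4 distinct deletions in amplicon 3 and of 1 in amplicon 2, and base 33765297 of 3 and 4. Bases 33765355 and 33765366 served 3 deletions each in amplicon 3. The 3 at 33765366 were the same deletions as in amplicon 4, and some at the other bases named here were repeats as well. The left outer edge 33764954 served 3 deletions in amplicon 2. Recurrence at these bases was therefore not limited to amplicons 1 and 4.

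Inner ends were reused on both sides. The base 33765053 ended 6 left-reaching deletions of 100 to 326 bp, with 13 molecules, and 5 inside deletions of amplicon 1 ended there too. On the right, 33765055 was the first deleted base of 3 deletions with 24 molecules, among them the most supported one, and 4 inside deletions of amplicon 4 began there. Base 33765431 began 4 right-reaching deletions with 5 molecules in all, each with inserted bases. Of the deletions with an inner end in the shared stretch, 36 of 53 left-reaching (67.9%; 53.7 to 80.1) and 29 of 58 right-reaching (50.0%; 36.6 to 63.4) shared that edge with an inside deletion of their own library.

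Molecules per deletion were few on both sides, with a longer tail on the right. Left-reaching deletions had a median of 1 molecule, a mean of 1.76 and a maximum of 5, and right-reaching ones a median of 2, a mean of 2.36 and a maximum of 13. A deletion rested on 1 molecule in 32 of 59 cases on the left (54.2%; 40.8 to 67.3) and 38 of 84 on the right (45.2%; 34.3 to 56.5), a difference of 9.0 percentage points with an interval of -7.46 to 24.8. The inside deletions of the same libraries differed in the same direction, at 47.9% in amplicon 1 and 28.9% in amplicon 4, 19.0 percentage points apart (5.88 to 31.1). A single molecule was thus more frequent among the deletions of amplicon 1 in the stretch that both libraries read. At least 5 molecules were found for 1 left-reaching and 9 right-reaching deletions.

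The leading deletions show where the molecules of the right flank were. The 302-bp deletion chr1:33765055-33765356, joined at AGCC, had 13 molecules and 39 read pairs, the most of any flank deletion. The 223-bp deletion from the same first base and the blunt 240-bp deletion chr1:33765070-33765309 had 7 molecules each. The 193-bp deletion chr1:33765085-33765277, with AGGG, and the 238-bp deletion chr1:33765039-33765276, with CA, had 6 each. They were placed before 3 others of 6 molecules by their read pairs. Of the 8 right-reaching deletions with at least 6 molecules, 7 began within the crowded 100 bp, and the other was the 22-bp deletion chr1:33765345-33765366.

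On the left the leading deletions were of 100, 251, 253, 131 and 220 bp with 5, 4, 4, 4 and 4 molecules. The first, chr1:33764954-33765053, and the second, chr1:33764803-33765053, shared their last deleted base, and the third ended 1 bp before it. The fifth was chr1:33764887-33765106. The deletions of furthest reach on the left, chr1:33764728-33764999, chr1:33764728-33765053 and chr1:33764729-33765000, had 1, 1 and 2 molecules. The first and the last of these are both of 272 bp, and their joins differ in 1 base. Whether they stem from the same product was not tested. The longest was chr1:33764751-33765083, of 333 bp and 1 molecule, and the shortest was chr1:33764762-33764783, of 22 bp and 2 molecules.

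The extremes of the right flank had little support as well. The furthest were chr1:33765429-33765526, chr1:33765431-33765526 and chr1:33765353-33765519, with 1 molecule each, and all 3 carried insertions. The joins of the first pair differ in 1 base, as printed above. The longest was chr1:33765023-33765355, of 333 bp and 2 molecules, and the shortest was chr1:33765298-33765309, of 12 bp and 1 molecule. Beyond 300 bp of the midpoint, right-reaching deletions held 26 molecules in 21 deletions and left-reaching ones 54 molecules in 35.

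**Figure D5:**
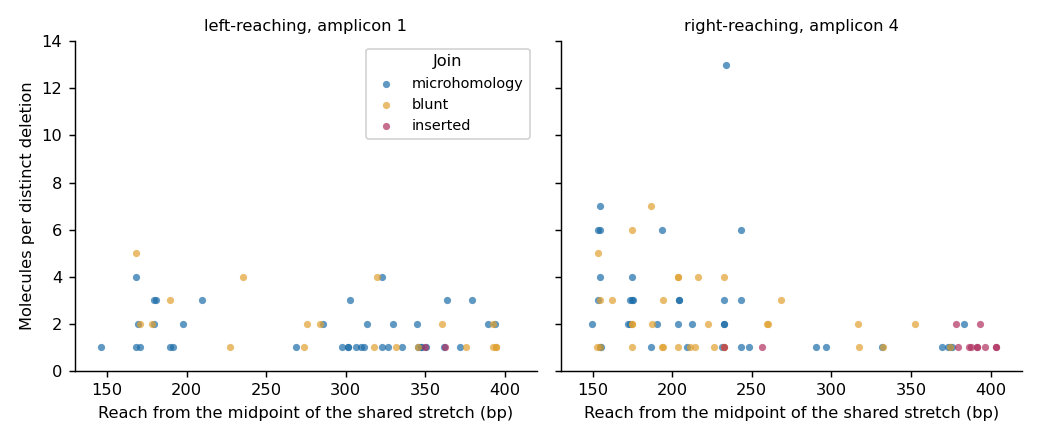
Molecules per distinct deletion against reach from the midpoint of the shared stretch (bp), 1 point per deletion, coloured by join, for the left-reaching (first panel) and right-reaching deletions (second panel). Right-reaching deletions of more than 2 molecules, up to 13, lie below 300 bp, the insertion joins lie mostly near 400 bp with 1 or 2 molecules, and left-reaching deletions have at most 5 molecules over the whole range.

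The neighbouring amplicons gave a second look at part of each flank. Of the 35 left-reaching deletions that amplicon 2 also covered, 2 were found in it (5.71%; 0.70 to 19.2). They were chr1:33764953-33765000, with 2 molecules in each library, and chr1:33764954-33765053, with 5 molecules in amplicon 1 and 2 in amplicon 2. Of the 68 right-reaching deletions that amplicon 3 covered, 11 were found in it (16.2%; 8.36 to 27.1), and of the 57 that amplicon 2 covered, 6 (10.5%; 3.96 to 21.5). Amplicon 2 reported deletions over a smaller range than it covered: counting only the deletions within the range seen in the neighbour, the shares were 2 of 18 on the left (11.1%) and 11 of 63 in amplicon 3 on the right (17.5%). The intervals of the left and right shares overlap in both counts.

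Among the recurrent right-reaching deletions, chr1:33765055-33765277 had 7 molecules in its own library, 8 in amplicon 3 and 4 in amplicon 2. The deletion chr1:33765033-33765276, of 244 bp and joined at CAG, had 3, 5 and 2, and chr1:33765345-33765366 had 6 in amplicon 4 and 2 in amplicon 3. Most flank deletions that a neighbour covered were found in no neighbour, 33 of 35 on the left and 55 of 68 on the right, and 16 and 21 of these rested on 1 molecule. Set against each other, the left-reaching deletions of amplicon 2 had microhomology in 17 of 26 (65.4%) and the right-reaching ones of amplicon 3 in 30 of 65 (46.2%), close to the values of amplicons 1 and 4. The right-reaching deletions of amplicon 2 had it in 32 of 56 (57.1%), so that within this library the flanks were 8.24 percentage points apart, with an interval that includes 0 (-14.4 to 28.2). In this library the 26 left-reaching deletions held 59 molecules and the 56 right-reaching ones 150, with median sizes of 104.5 and 264.5 bp. Its span, chr1:33764797-33765375, covers more of the left flank than of the right. Amplicon 2, which began at 33764797, covered less of the left flank than amplicon 3, which ended at 33765491, did of the right. The furthest deletions seen there reached 244.5 and 315.5 bp, which was 81 and 53 bp short of these ends.

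The deletions inside the shared stretch gave a comparison of the 2 libraries over the same bases, which lie at the end of amplicon 1 and at the start of amplicon 4. Both contained 18 of them, 15.4% of the 117 in amplicon 1 and 18.6% of the 97 in amplicon 4. These 18 removed 11 to 88 bp (median 47) and 13 had microhomology. The deletions with the most molecules were chr1:33765022-33765053 with 8 in each library, chr1:33765017-33765061 with 7 in amplicon 1 and 5 in amplicon 4, and chr1:33765056-33765123 with 3 and 9. They were followed by chr1:33765023-33765053 and chr1:33765030-33765061, each with 2 in amplicon 1 and 8 in amplicon 4. Per shared deletion the median was 1 molecule in amplicon 1 and 3 in amplicon 4.

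A feature of the calls also differed between the libraries inside the shared stretch. The deposited tables mark each junction as inline or not, which is taken here as a call within a single alignment or across split alignments. Inline calls made up 100 of 117 inside deletions in amplicon 1 (85.5%) and 50 of 97 in amplicon 4 (51.5%), whereas they were 6 of 59 left-reaching and 14 of 84 right-reaching deletions. With inline calls left out of the flanks, the microhomology shares were 64.2% on the left and 45.7% on the right. The part that the way of calling plays in the counts was not tested.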

How the data were processed

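Testis DNA of 3 mice was amplified and sequenced as paired reads of 300 bp, in 1 run with 5% PhiX, per the labels' protocols. The submitters' processing notes name fastp 0.23.2, BWA 0.7.17 and mm10. How junctions were called, filtered and collapsed to molecules is not given in the sources used here. Per the file headers, the deposited tables give for each junction whole, unnormalized counts of read pairs and molecules, the first and last deleted base, the size and an insert size. The last was positive for inserted bases, negative for microhomology and 0 for blunt joins, as its bases show.

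Amplicon spans and the sequence were rebuilt from the deposited reads (at least 55 reads per base, 0 differing bases between amplicons). Lines with equal deleted bases were merged. In amplicon 4, 1 start was corrected from 33765057 to 33765051 to fit the deposited size and end, and 1 inside deletion with both an inserted and a microhomology line counts as inserted.

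Intervals at 95% (exact Poisson, Clopper-Pearson, Newcombe, order statistics) cover counting error only. Each amplicon is 1 library, so no test was made. The procedures were tested on simulated data in Python 3.11.15 with numpy 2.4.6, pandas 2.3.3 and scipy 1.17.1, and figures were drawn in matplotlib 3.10.9.

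Members and lists were chosen with earlier results of these data known. Named deletions are, per flank, the 5 with the most molecules (ties by read pairs), the 3 of furthest reach, the longest, the shortest and up to 3 also found in a neighbour, plus the 5 shared inside deletions with the most molecules and edges used by at least 3 flank deletions. Other microhomology and insertion joins were named after their values were seen. Joins of 2 named deletions, whose reads differ from the rebuilt sequence nearby, are not printed. Alternatives changed read support, boundaries, merging of near edges, distance from the amplicon ends, the unit, the centre, the source of the join type and the libraries. Those on edge placement, split alignments, deletions within a flank, size, an outer limit, the centre for inner ends and both flanks of amplicon 2 were added after seeing the data.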

Additional observations from a re-analysis of the deposited data

How the results depend on the processing

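Of 51 alternative values, 37 stayed within the 95% interval of the reported value (for reach and size, of each median), 12 moved and 2 reversed. The reach difference, 92 bp longer on the left, reversed to -26 bp with the centre at the median midpoint of the inside deletions and to -20 bp in amplicons 2 and 3, where amplicon 2 covers less of the left flank. It was 84.5 bp with at least 2 molecules. The difference in median size, 3 bp, became -42.5 bp with at least 2 read pairs, -62 bp with at least 2 molecules, -152.5 bp in amplicons 2 and 3, -16 bp weighted by read pairs and -23.5 bp weighted by molecules, the last with each median within its interval. It was -9 bp with at least 20 bp past the boundary and -2 bp with near edges merged. These changes of sign were counted as moved or as within the interval, and only those of reach as reversed. The right-to-left count ratio of 1.42 became 2.5 in amplicons 2 and 3, 2.49 in read pairs and 2.05 with boundaries equally far from the median midpoint, and was lower at 1.24 with at least 20 bp past the boundary and 1.34 with at least 2 read pairs. The flank-per-inside ratio of 1.72 became 2.94 in amplicons 2 and 3. The gap in deletions past the centre, 47.3 percentage points, became 7.41 with the centre at the median midpoint. The microhomology difference of 18.0 percentage points became 1.26 by read pairs and was 8.24 within amplicon 2. The difference in recurrent outer edges of 29.4 percentage points became 14 at rightmost placement. No deletion lay within 20 bp of an amplicon end. The values of that alternative therefore equal the reported ones by construction, and they are counted among the 37.

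No paired analysis was possible because each amplicon is 1 library; no replicate was left out for the same reason. The share of single-molecule deletions has no value with at least 2 molecules. Sequencing depth is unknown. Deletions were limited to those between the primers, and the left-reaching and right-reaching deletions of amplicons 1 and 4 were read in different libraries.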
